A study of Homo sapiens with 18 samples.

Results

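The 10 genes PNPT1, HAT1, SUB1, STAMBPL1, PYCARD, PRRX2, NPTX1, FOXF1, CETN3 and CALM2 were taken by gene symbol from a table of normalized counts with 56269 genes. They were chosen by their values after an oxidant, because tests of single genes, or the study's own account, set them apart between pre-incubations with hyaluronan (HA) of different polymer length. The values after the oxidant are therefore given below as a description, without a test. In a fit of all 18 libraries, 19 of 13686 genes (0.139%) differed after the oxidant between cells given partly cut HA (fNSF-HA) and cells given buffer (PBS), and 6 of these were among the 10 genes, so the PBS libraries after the oxidant entered the choice as well. FOXF1 was the last of the 6, at rank 12 by p-value, and SUB1 followed outside the call at rank 25. The same limma fit called 0 genes between cells given uncut HA (cNSF-HA) and fNSF-HA after the oxidant, where 4412 had an unadjusted p under 0.05, and 0 between cNSF-HA and PBS, where 1183 did. The study itself, with its own DESeq2 test, reported genes at q < 0.05 for cNSF-HA against fNSF-HA after the oxidant. Between these preparations without the oxidant the fit of all 18 libraries also called 0 genes, where a fit of 9 libraries called 941. The means compared in the choice were those of libraries after the oxidant. The libraries without it entered the fit of all 18 libraries through the shared spread. A small spread in them could therefore help a gene into the choice. For PRRX2 and PYCARD the study's account also holds RT-qPCR in cells without the oxidant. The tests of the 10 genes below compare the means of the libraries without the oxidant.

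The cells were IMR90, a line of human lung fibroblasts, grown in EMEM with fetal bovine serum. For 6 h the cells received PBS or 20 μg/ml of HA purified from the medium of naked mole-rat skin fibroblasts. In the cNSF-HA group this HA had been heated with inactivated hyaluronidase and kept its very long chains, and in the fNSF-HA group it had been cut in part by active hyaluronidase. The medium was then removed in 3 of the 6 groups, and 200 μM tert-butyl hydroperoxide (tBHP) was applied for 1 h. Their RNA was collected 5 h later, while the groups without tBHP were collected after the pre-incubation. Between groups with and without tBHP, the oxidant, the later collection and the change of medium cannot be told apart. Each group had 3 replicates, which the methods of the study describe as biological, while the labels do not say how they were kept apart. All groups shared this 1 line and its medium.

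HA is a long unbranched sugar polymer of the extracellular matrix, and CD44 is its main receptor on fibroblasts. Very long HA is known to be abundant in naked mole-rat tissue, and shorter chains can act on CD44 differently. tBHP is an organic peroxide that produces radicals in cells, to which fibroblasts respond with a p53-dependent damage response and a wide change in transcription. The 10 genes belong to several unrelated functions. PNPT1, HAT1 and SUB1 act on RNA, histones and transcription, CALM2 and CETN3 encode calcium-binding EF-hand proteins, FOXF1 and PRRX2 are mesenchymal transcription factors, and NPTX1, PYCARD and STAMBPL1 encode a secreted pentraxin, an inflammasome adaptor and a deubiquitinase.

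The libraries held between 20261103 and 26287660 reads, and every deposited value, scaled back, gave whole reads. Without tBHP the median SD of a gene within a group was 0.076 on the log2 scale, and after tBHP it was 0.206. The fibroblast markers ran from COL1A1, at 160230 to 337700 normalized counts, down to FAP, at 1235 to 2092, and LUM, at 223 to 573. Among markers of other cell types the epithelial KRT8 and KRT18 stood at 233 to 464 and 920.1 to 1778, so LUM was near KRT8 and below KRT18. VWF reached 25.0, CD14 12.6 and CD68 11.3, the other markers at most 5.47 (EPCAM), and KRT5, SFTPC and CDH5 were at 0. The third fNSF-HA and the second fNSF-HA library after tBHP differed most of all replicate pairs, with a chi-square of 64.8 per degree of freedom between their reads, against 1.45 to 2.55 in pairs without tBHP. Normalized counts of the 10 genes are given below in the order of replicates 1, 2 and 3.

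**Figure D1:**
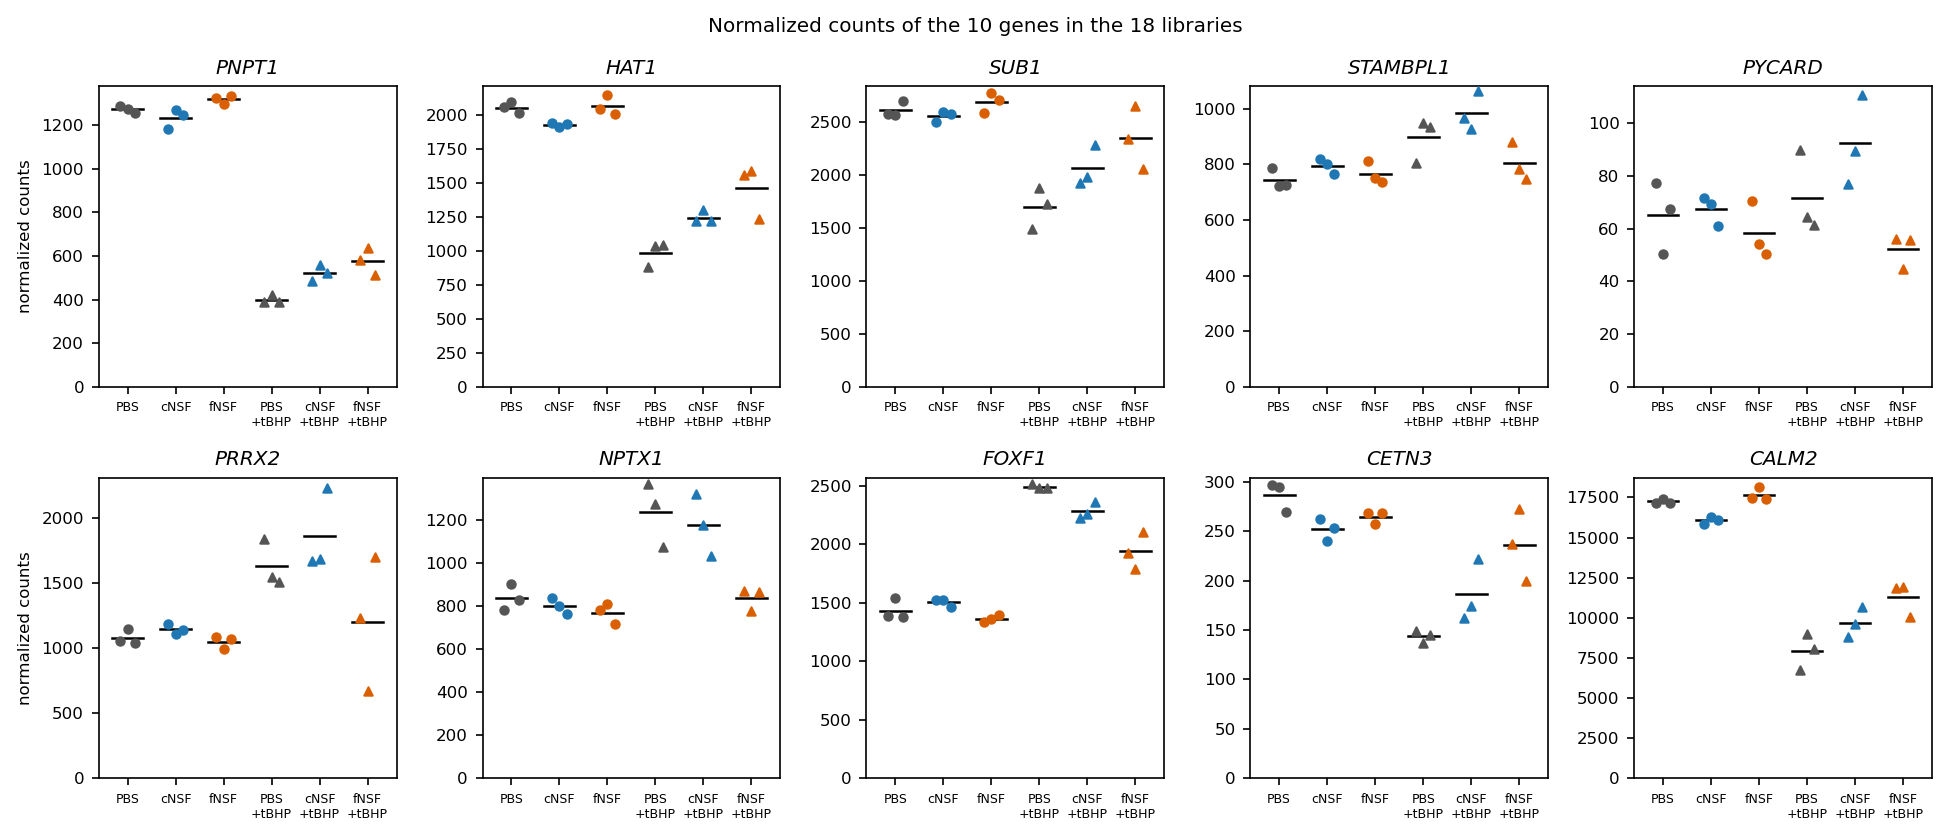
Normalized counts (y axis, from 0) of each of the 10 genes in the 6 groups (x axis), with circles for libraries without tBHP, triangles for libraries after tBHP and a line at the mean of 3. PNPT1, HAT1, SUB1 and CETN3 lie lowest in the PBS libraries after tBHP, those of CALM2 have the lowest mean and overlap with cNSF-HA, and PRRX2 is spread from 674 to 1702 in the fNSF-HA libraries after tBHP.

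PNPT1 encodes polynucleotide phosphorylase, an exoribonuclease that degrades RNA in mitochondria, and lies at chr2:55634265-55693910 on the minus strand of GRCh38. The PBS libraries without tBHP held 1289, 1275 and 1255 normalized counts of PNPT1, the cNSF-HA libraries 1180.3, 1269.7 and 1248, and the fNSF-HA libraries 1325, 1294 and 1331. The PBS libraries after tBHP held 390.4, 422 and 387, the cNSF-HA libraries 485, 559 and 521.4, and the fNSF-HA libraries 582, 634 and 512.5. All 3 PBS libraries after tBHP were lower than the 6 HA libraries after tBHP, while the cNSF-HA and fNSF-HA libraries overlapped through the third fNSF-HA library. Since the RNA came from whole cultures, fewer cells with a transcript and less of it in each cell cannot be told apart.

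HAT1, at chr2:171922448-171983682 on the plus strand, encodes the acetyltransferase of newly made histone H4. Before any tBHP, HAT1 stood at 1939.9, 1909 and 1928 normalized counts after cNSF-HA, at 2038, 2146 and 2003 after fNSF-HA and at 2052, 2089 and 2013 after PBS. Once tBHP had been applied, HAT1 stood at 1214, 1299 and 1215 after cNSF-HA, at 1558, 1582 and 1230.0 after fNSF-HA and at 883, 1034 and 1039.4 after PBS. The cNSF-HA libraries were the lowest without tBHP and stood between PBS and the first and second fNSF-HA libraries after it.

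SUB1, at chr5:32531633-32604079 on the plus strand, encodes the transcription coactivator PC4, which binds single-stranded DNA. Unstressed libraries had 2584.5, 2777 and 2710.3 normalized counts of SUB1 with fNSF-HA, 2579, 2569.8 and 2699.7 with PBS and 2497, 2596 and 2574 with cNSF-HA. Stressed libraries had 2339, 2649.8 and 2059 with fNSF-HA, 1491, 1880.2 and 1729.8 with PBS and 1924, 1983.5 and 2288 with cNSF-HA. The groups without tBHP overlapped, and after tBHP the PBS libraries were below every HA library. Processed pseudogenes of PNPT1, SUB1 and CALM2 share sequence with them, and reads shared with these copies are uncertain. Those listed in the table held between 0 and 5.91 normalized counts.

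CALM2 is 1 of the genes that encode calmodulin, the main calcium sensor of the cell, and lies at chr2:47160082-47176601 on the minus strand. The PBS libraries without tBHP held 17148, 17420.2 and 17176 normalized counts of CALM2, the cNSF-HA libraries 15875, 16257 and 16102.5, and the fNSF-HA libraries 17455, 18172 and 17412.5. The PBS libraries after tBHP held 6762.5, 8973 and 8027, the cNSF-HA libraries 8798, 9595 and 10648.5, and the fNSF-HA libraries 11873, 11950.2 and 10039.6. Without tBHP the cNSF-HA libraries were below the other 6 with no overlap, and after tBHP they overlapped with both other groups. A protein-coding gene, AC073283.3, overlaps exons of CALM2 on the same strand, by 71 bases in the longest overlap.

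CETN3 encodes a centrin of the centrosome and lies at chr5:90392261-90409786 on the minus strand. Before any tBHP, CETN3 stood at 262, 240.4 and 253 normalized counts after cNSF-HA, at 269, 257 and 268 after fNSF-HA and at 296, 295 and 269.8 after PBS. Once tBHP had been applied, CETN3 stood at 162, 174.5 and 222 after cNSF-HA, at 237, 272 and 199 after fNSF-HA and at 149, 137 and 145.5 after PBS. The PBS libraries were the highest without tBHP and the lowest after it, in both cases with no overlap with either HA group. The gene rested on 126 to 316 reads per library.

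FOXF1, at chr16:86510527-86515418 on the plus strand, encodes a forkhead transcription factor of the lung mesenchyme. Unstressed libraries had 1335, 1358 and 1393 normalized counts of FOXF1 with fNSF-HA, 1387, 1537 and 1377.5 with PBS and 1527, 1525 and 1459.8 with cNSF-HA. Stressed libraries had 1922, 1791 and 2105 with fNSF-HA, 2511, 2481 and 2479 with PBS and 2224, 2256 and 2363 with cNSF-HA. None of the 3 groups after tBHP overlapped with another, in the order PBS, cNSF-HA, fNSF-HA from high to low.

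PRRX2, a paired-related homeobox gene of mesenchymal cells, lies at chr9:129665641-129722674 on the plus strand. The PBS libraries without tBHP held 1054, 1145 and 1037 normalized counts of PRRX2, the cNSF-HA libraries 1188, 1112 and 1140.4, and the fNSF-HA libraries 1084, 996 and 1069.6. The PBS libraries after tBHP held 1841, 1548 and 1507, the cNSF-HA libraries 1669, 1688 and 2234, and the fNSF-HA libraries 1230.3, 674 and 1701.5. The 3 fNSF-HA libraries after tBHP ran from the lowest of all 18 libraries to above the first and second cNSF-HA libraries, with an SD of 514 around a mean of 1202.

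NPTX1 encodes a secreted neuronal pentraxin and lies at chr17:80467148-80477843 on the minus strand. Before any tBHP, NPTX1 stood at 836, 799.5 and 765 normalized counts after cNSF-HA, at 783, 810.0 and 716.5 after fNSF-HA and at 783, 902 and 827.6 after PBS. Once tBHP had been applied, NPTX1 stood at 1321, 1178 and 1032 after cNSF-HA, at 872, 778 and 866 after fNSF-HA and at 1364, 1273 and 1073 after PBS. All fNSF-HA libraries after tBHP lay below all PBS and cNSF-HA libraries after tBHP, and within the range of the libraries without tBHP.

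PYCARD encodes ASC, the adaptor that links inflammasome sensors to caspase-1, and lies at chr16:31201485-31203450 on the minus strand. It was the least abundant of the 10 genes in reads, with 42 to 109 per library. Unstressed libraries had 70.6, 54.2 and 50.3 normalized counts of PYCARD with fNSF-HA, 77.2, 50.4 and 67.4 with PBS and 71.6, 69.4 and 61.0 with cNSF-HA. The unstressed groups overlapped. Stressed libraries had 56.1, 44.7 and 55.8 with fNSF-HA, 89.7, 64.2 and 61.3 with PBS and 76.9, 89.3 and 111 with cNSF-HA. All fNSF-HA libraries after tBHP were below the other 6. The antisense gene PYCARD-AS1 overlaps its exons, by 991 bases in the longest overlap. Because the library kit does not keep the strand, reads of the pair cannot be told apart there. PYCARD-AS1 itself was listed at no more than 5.27 normalized counts.

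STAMBPL1, at chr10:88879734-88975153 on the plus strand, encodes a metalloprotease that removes ubiquitin chains at endosomes. The PBS libraries without tBHP held 788, 724 and 725 normalized counts of STAMBPL1, the cNSF-HA libraries 819.6, 801.5 and 766, and the fNSF-HA libraries 813, 751 and 736. The PBS libraries after tBHP held 806, 950.5 and 935.5, the cNSF-HA libraries 965.5, 928 and 1065, and the fNSF-HA libraries 880.4, 785 and 749. The cNSF-HA and fNSF-HA libraries after tBHP did not overlap, and the PBS libraries overlapped with both.

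A part of CD44 that is released into the cell, the CD44 intracellular domain, is described by the study as binding the letters CCTGCG. The 250 bases before the RefSeq start (GRCh38.p14) were searched on both strands, a shorter stretch than the promoter regions of the study. This was done for 5 of the 10 genes, which were those matched in the table of promoters. CCTGCG or its reverse complement occurred 2 times before STAMBPL1, 1 time before PYCARD and not before PNPT1, HAT1 or PRRX2, and 20.2% of 35116 promoters of the same length held it. The RefSeq start lies 511 bases into the GENCODE 29 gene of STAMBPL1 and 690 bases into that of PYCARD, so both windows are inside the annotated genes. All 3 matches lie in the first exon, in the 5′ UTR, of 2 of 6 STAMBPL1 and 2 of 4 PYCARD transcripts. They are shown with their flanks, with the motif in capitals, because no other match was found in the windows of the 5 genes.
STAMBPL1, chr10:88880095-88880124, plus strand: ctctaggccatcCGCAGGggccctgcttcc
STAMBPL1, chr10:88880118-88880147, plus strand: tgcttccttccaCCTGCGagctttttctgc
PYCARD, chr16:31202926-31202955, minus strand: cgggtcccacctCGCAGGccagctggaggg
A match is no more than these letters in this window.

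The bases before the first exon are shown for PRRX2, higher with cNSF-HA after tBHP, and for HAT1, lower with it. Capitals mark GGGCGG or its reverse complement, the GC box, which 42.6% of promoters held. It occurred in the windows of all 5 genes, 3 times for PRRX2, 2 times for PYCARD and 1 time each for HAT1, PNPT1 and STAMBPL1.
PRRX2, chr9:129665397-129665640, plus strand: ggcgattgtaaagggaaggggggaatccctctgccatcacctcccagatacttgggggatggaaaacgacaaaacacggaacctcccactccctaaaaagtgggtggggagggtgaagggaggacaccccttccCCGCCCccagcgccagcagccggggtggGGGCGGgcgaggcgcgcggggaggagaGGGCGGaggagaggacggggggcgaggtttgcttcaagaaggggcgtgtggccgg
HAT1, chr2:171922211-171922447, plus strand: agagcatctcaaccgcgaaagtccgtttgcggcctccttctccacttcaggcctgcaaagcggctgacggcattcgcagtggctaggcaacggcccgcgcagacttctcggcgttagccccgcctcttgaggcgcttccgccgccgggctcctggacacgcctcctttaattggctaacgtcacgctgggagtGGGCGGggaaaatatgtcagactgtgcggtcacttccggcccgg
The 250 bases before the start were 66.8% GC for PRRX2, 64.0% for HAT1, 65.6% for STAMBPL1, 71.2% for PYCARD and 50% for PNPT1, against a median of 58% over all promoters.

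The contrast of both HA preparations after tBHP asks what HA polymer length changed in stressed cells. PNPT1, HAT1, SUB1, CETN3 and CALM2 were lower with cNSF-HA, and STAMBPL1, PYCARD, PRRX2, NPTX1 and FOXF1 were higher. On the log2 scale of normalized count + 1, cNSF-HA minus fNSF-HA was largest for PYCARD, at 0.80 (SDs of 0.26 and 0.18, n = 3 each), and for PRRX2, at 0.72 (SDs of 0.24 and 0.68). It was 0.48 for NPTX1, 0.29 for STAMBPL1 and 0.24 for FOXF1. On the lower side it was -0.34 for CETN3, -0.22 for HAT1 and for CALM2, -0.18 for SUB1 and -0.14 for PNPT1, which differed least. The libraries of both HA groups did not overlap for STAMBPL1, PYCARD, NPTX1 and FOXF1, or 4 of 10, beside 13.4% of the genes tested. All 4 were higher with cNSF-HA, beside 5.07%.

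The count of genes that did not overlap moved most with the third fNSF-HA library. Without it, all 10 genes had HA groups that did not overlap, beside 52.9% of the genes tested, and PRRX2 differed by 1.02. Without the third cNSF-HA library 7 of 10 did not overlap, beside 25.1%. With the second fNSF-HA library left out the count was 4 of 10, beside 16.2%, and PRRX2 then differed by 0.35. With the first or second cNSF-HA library or the first fNSF-HA library left out it was 4, 5 and 4 of 10, beside 24.4%, 21.9% and 17.4%. Leaving out a library cannot lower this count, so these values are no sign of its stability. With each library's trend with transcript GC content and length removed, the groups did not overlap for STAMBPL1, PYCARD and FOXF1, or 3 of 10, beside 11.2% of the 12528 genes with these properties, while the NPTX1 groups overlapped, at 9.90 to 10.28 (cNSF-HA) and 9.67 to 10.06 (fNSF-HA) on the log2 scale.

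Against PBS after tBHP, both HA groups had the higher mean for PNPT1, HAT1, SUB1, CETN3 and CALM2. For CETN3 the log2 difference from PBS was 0.36 with cNSF-HA and 0.70 with fNSF-HA, and for PNPT1 it was 0.38 and 0.52. Both were below PBS for NPTX1, at -0.07 and -0.56, and for FOXF1, at -0.13 and -0.36. Only STAMBPL1, PYCARD and PRRX2 had the HA groups on opposite sides, with 0.14 and -0.16, with 0.37 and -0.44, and with 0.18 and -0.53. The cNSF-HA and PBS libraries did not overlap for 5 of 10 genes, beside 9.57% of the genes tested, and the fNSF-HA and PBS libraries for 8 of 10, beside 12%. Both comparisons use the same PBS libraries, and the choice of the genes used the latter.

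The same contrast in cells without tBHP was tested with limma in the 9 libraries without tBHP, whose means that choice did not compare. CALM2 was lower with cNSF-HA than with fNSF-HA, by a log2 difference of -0.14 (SE 0.023, limma adjusted p = 0.0018), and was lower in 3 of 3 cNSF-HA libraries. FOXF1 was higher with cNSF-HA, by 0.14 (SE 0.042, limma adjusted p = 0.0364), again with no overlap. These 2 of 10 genes passed the threshold of 0.05, beside 6.88% of the genes tested. The HA groups did not overlap for PNPT1, HAT1, CALM2, PRRX2 and FOXF1, or 5 of 10, beside 25%. After removal of each library's trend with transcript GC content and length, neither gene passed, with FOXF1 at 0.14 (limma adjusted p = 0.0901) and CALM2 at -0.05 (limma adjusted p = 0.235). FOXF1 also did not pass without any 1 of 5 of the 6 HA libraries, with limma adjusted p from 0.0633 to 0.136, and passed without the third cNSF-HA library. Both calls were also lost with no filter on low values and in a fit of all 18 libraries.

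The other 8 genes did not pass. HAT1 differed by -0.10, with a 95% interval of the fit from -0.17 to -0.03 (limma adjusted p = 0.0882), and PNPT1 by -0.10, from -0.18 to -0.01 (limma adjusted p = 0.156). PRRX2 differed by 0.13, from 0.03 to 0.22 (limma adjusted p = 0.0961). These intervals are not adjusted for the number of genes. PYCARD differed by 0.21, but its interval ran from -0.13 to 0.56, so 0 lay inside it. For PRRX2 and PYCARD the study reports, by RT-qPCR in unstressed cells, effects of HA polymer length that are mediated by CD44. For NPTX1 the interval ran from -0.06 to 0.17 and for STAMBPL1 from -0.05 to 0.16. CETN3, at -0.07, had an interval from -0.23 to 0.08, and SUB1, also at -0.07, from -0.14 to -0.0042.

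**Figure D2:**
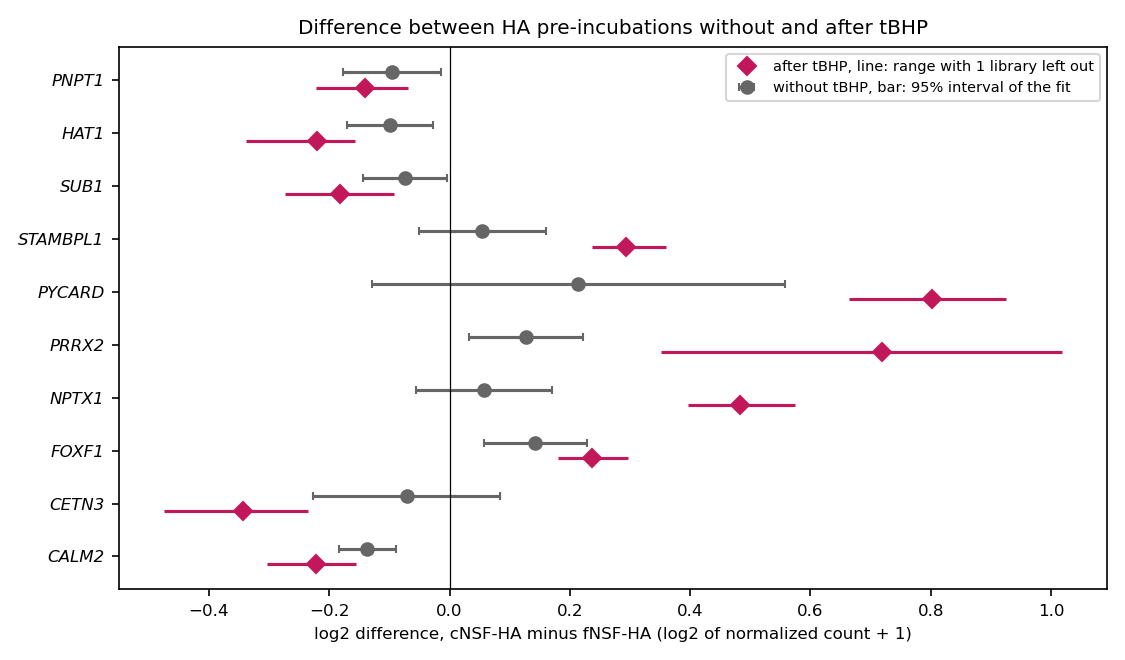
Log2 difference of cNSF-HA minus fNSF-HA (x axis, log2 of normalized count + 1) for each gene (y axis). Values without tBHP carry the 95% interval of the limma fit (grey). Values after tBHP carry the range of the difference of means with each of the 6 libraries left out in turn (magenta). The sign is the same in both states for 10 of 10 genes, and PRRX2 has the widest range after tBHP, from 0.35 to 1.02.

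The sign of the difference between the HA groups was the same without and after tBHP for 10 of 10 genes, beside 71% of all genes tested. No library is shared between these 2 comparisons, but values after tBHP chose the genes, so this count is a description. After the trend with GC content and length was removed from each library, 5 of 10 genes had the same sign, beside 56.2% of all genes.

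Against PBS without tBHP, limma without a replicate block called 0 of the 10 genes. With cNSF-HA, limma called 0 of 13686 genes (0%), although 1648 had an unadjusted p under 0.05, DESeq2 called 15 and edgeR 0. CALM2 was among the 15 and lay 0.10 below PBS on the log2 scale (log2 difference -0.10, SE 0.023, limma adjusted p = 0.12, DESeq2 adjusted p = 0.0441). It also passed in limma without the first PBS library (limma adjusted p = 0.028). CETN3 differed from PBS by -0.19 and HAT1 by -0.09, and these 2 genes and CALM2 did not overlap with PBS, or 3 of 10, beside 15.2%. With fNSF-HA, limma called 19 genes (0.139%), none of them among the 10. The fNSF-HA libraries did not overlap with PBS for PNPT1, at 0.05, and CETN3, at -0.12, or 2 of 10, beside 14%.

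The response to tBHP in PBS cells is the difference between PBS cells after and without tBHP. It holds the oxidant together with the later collection and the change of medium. It is given as values, since the PBS libraries after tBHP entered the choice. Among all genes tested, 55.9% passed in limma, 3773 higher and 3880 lower after tBHP, and 63.8% did not overlap. PNPT1 differed by -1.67 (SE 0.073) on the log2 scale, from a mean of 1273 to 400.0 normalized counts. CALM2 differed by -1.13, HAT1 by -1.06, CETN3 by -0.99 and SUB1 by -0.63. FOXF1 differed by 0.80 (SE 0.064), from 1434 to 2491 normalized counts, PRRX2 by 0.59, NPTX1 by 0.56, STAMBPL1 by 0.26 and PYCARD by 0.14 (SE 0.21). The libraries overlapped for PYCARD only. With the trend with GC content and length removed, the differences were nearer to 0 for PNPT1 (-1.19), CALM2 (-0.70), HAT1 (-0.62), CETN3 (-0.29), SUB1 (-0.13), FOXF1 (0.68), NPTX1 (0.28) and PRRX2 (0.15). That of STAMBPL1 was larger, at 0.55, and PYCARD turned, to -0.21.

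The 5 genes that were lower after tBHP in PBS cells are the 5 that were lower with cNSF-HA than with fNSF-HA after tBHP. With the trend with GC content and length removed they were still lower after tBHP in PBS cells. Their difference between the HA groups then ran from 0.01 (CALM2) to 0.10 (PNPT1). Libraries after tBHP entered the choice, and the share of such matches over all genes was not computed. As deposited, the same genes differed in cNSF-HA cells by -1.24 (PNPT1), -0.74 (CALM2), -0.63 (HAT1), -0.45 (CETN3) and -0.31 (SUB1) between the states. In fNSF-HA cells they differed by -1.20, -0.65, -0.51, -0.18 and -0.20 in that order. Of the genes that were higher, FOXF1 differed by 0.60 in cNSF-HA and 0.51 in fNSF-HA cells, and NPTX1 by 0.55 and 0.12. PRRX2 differed by 0.69 in cNSF-HA and 0.10 in fNSF-HA cells, STAMBPL1 by 0.31 and 0.07, and PYCARD by 0.44 and -0.15. The libraries with and without tBHP did not overlap for 10 of 10 genes with cNSF-HA, beside 63.7% of the genes tested, and for 4 of 10 with fNSF-HA, beside 48.7%. Differences between these responses were not tested, because the libraries after tBHP chose the genes.

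**Figure D3:**
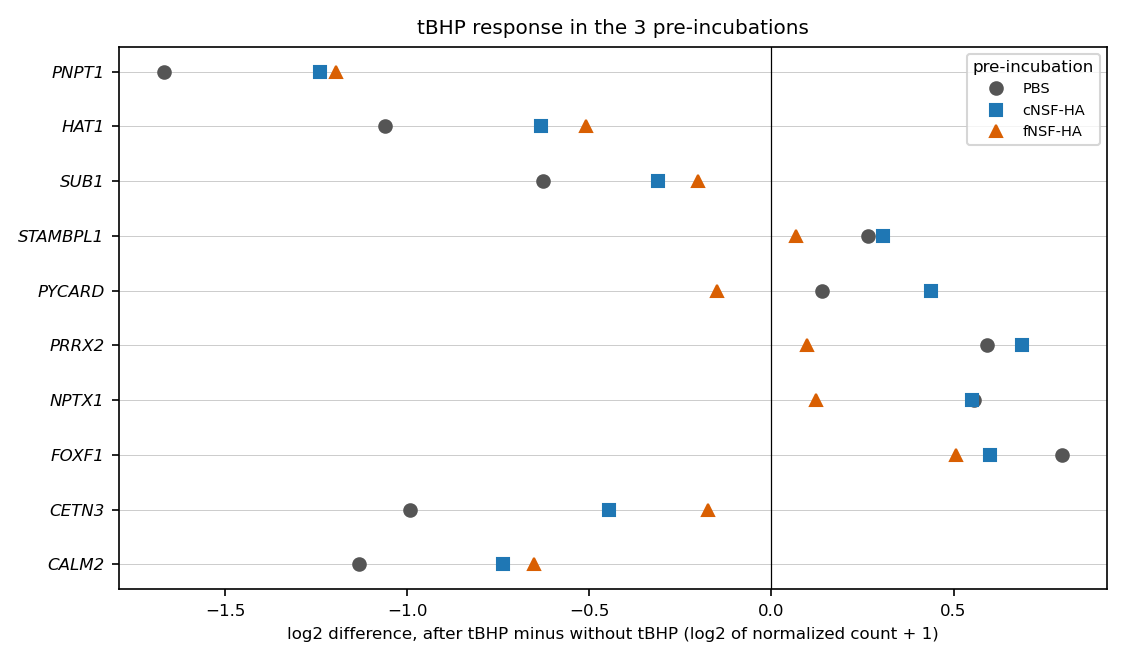
Log2 difference between cells after and without tBHP (x axis, log2 of normalized count + 1) for each gene (y axis) in PBS (circles), cNSF-HA (squares) and fNSF-HA cells (triangles), from means of 3 libraries. PYCARD alone has the triangle on the other side of 0 from the square, at -0.15.

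The 10 genes differ in base composition along with the direction of their difference. The 5 genes lower with cNSF-HA after tBHP had a median transcript GC content of 34.6% to 40.1% in GENCODE 29, and the 5 higher ones ranged from 42.6% (STAMBPL1) and 51.2% (FOXF1) to 60.0% (NPTX1), 62.5% (PYCARD) and 69.0% (PRRX2). The median over 12528 genes was 49.5%. Genes in the top 10% by GC content deviated from the mean of the 9 libraries after tBHP by a median of -0.20, -0.79 and 0.17 in the fNSF-HA libraries and by 0.11, 0.13 and 0.33 in the cNSF-HA libraries. In the PBS libraries after tBHP these medians were 0.31, -0.02 and 0.02. PRRX2 moved with them, being lowest in the second fNSF-HA library and highest in the third cNSF-HA library.

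Removing the trend with GC content and length from each library changed the differences after tBHP unequally. PRRX2 went from 0.72 to 0.06, PYCARD from 0.80 to 0.42 and NPTX1 from 0.48 to 0.24. STAMBPL1 went from 0.29 to 0.50 and FOXF1 from 0.24 to 0.31. The 5 genes that had been lower with cNSF-HA all lay between 0.01 (CALM2, CETN3) and 0.10 (PNPT1). The part of the trend in each gene's difference was not tested beyond this removal.

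**Figure D4:**
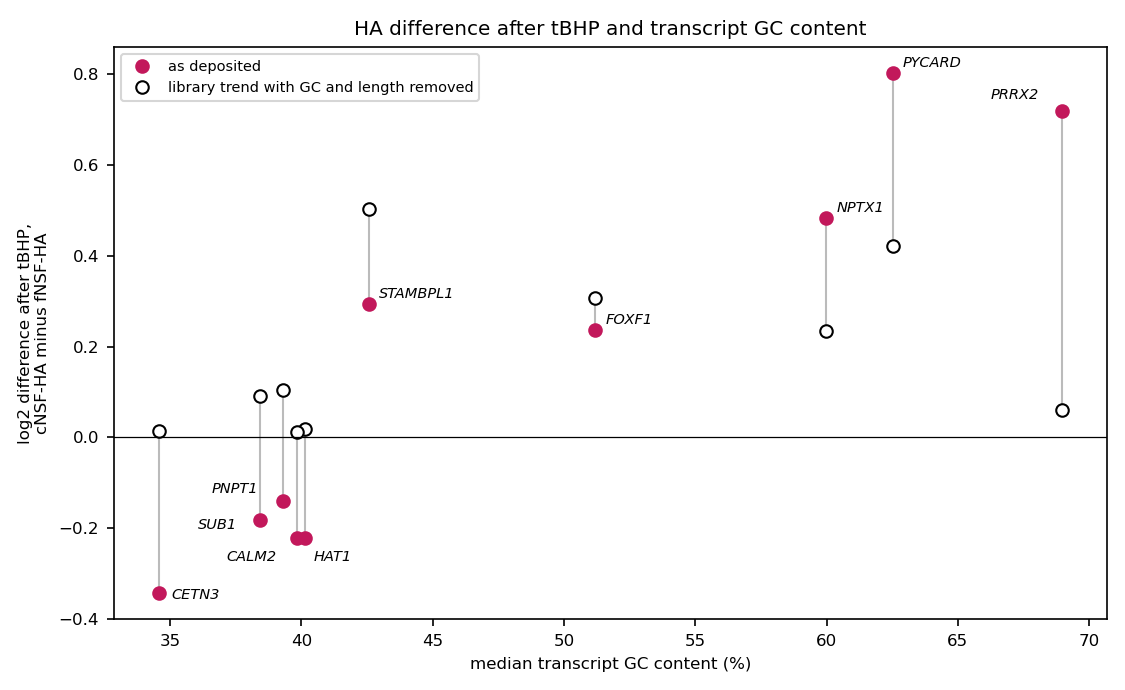
Log2 difference after tBHP of cNSF-HA minus fNSF-HA (y axis) against the median GC content of the gene's transcripts in percent (x axis), as deposited (filled) and with each library's trend with GC content and length removed (open), for the 10 genes. The 5 filled points below 0 lie between 34.6% and 40.1% GC, and PRRX2, at 69.0%, moves from 0.72 to 0.06.

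Relatives and partners of the 10 genes were read from lists written by hand, with cNSF-HA against fNSF-HA without tBHP tested over all genes. Of all genes 1.72% were higher and 5.15% lower in that comparison. This split depended on the scaling, with 325 higher and 323 lower under TMM and 221 higher and 106 lower under quantile scaling, and the calls fell from 941 to 105 with the trend with GC content and length removed. Calmodulins, centrins and their partners (CALM2, CETN3) had 0 higher and 4 lower of 14 tested, with the list median at -0.02 as for all genes. The 4 were the calcineurin subunits PPP3CB (-0.20), PPP3CA (-0.18) and PPP3R1 (-0.17) and the calmodulin-dependent kinase CAMK2D (-0.13). Of 17 genes tested on the list of mesenchymal transcription factors beside PRRX2 and FOXF1, which also holds an lncRNA, TBX2 (0.18) and GLI2 (0.15) were higher and PRRX1 (-0.12), the paralog of PRRX2, was lower. That lncRNA, FENDRR, the neighbour of FOXF1, differed by 0.13 (limma adjusted p = 0.084). Of 16 genes of mitochondrial RNA processing beside PNPT1, TFAM (-0.23), which packages mitochondrial DNA, and GRSF1 (-0.10) were lower.

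Among 10 general transcription factors beside SUB1, GTF2A1 (-0.19) was lower. HGS (0.10), an endosomal sorting protein, was higher among 10 genes of JAMM deubiquitinases and endosomal sorting listed beside STAMBPL1, and the inflammasome kinase NEK7 (-0.16) was lower among the 7 of 14 inflammasome genes that could be tested beside PYCARD. Of the 11 histone chaperones and partners beside HAT1 and the 2 of 5 pentraxins beside NPTX1 that could be tested, limma called 0. The smallest limma adjusted p were 0.0786 (TONSL) and 0.62 (PTX3).

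In PBS cells tBHP lowered 7 and raised 0 of the 16 genes of mitochondrial RNA processing, among them TFAM (-1.03) and FASTKD2 (-0.96), with a list median of -0.19 against 0.0043 for all genes. It lowered 6 and raised 3 of the 14 calmodulins, centrins and partners, with the myosin kinase MYLK at -1.12 and XPC, the DNA damage sensor that binds centrin, at 1.05. Of the list of mesenchymal transcription factors 6 were raised and 6 lowered, with GLI1 at 1.49, FOXL1 at 0.87, HOXA5 at -1.22 and PRRX1 at -0.90, while PRRX2 itself was higher. Of the inflammasome genes CASP4 (0.44) was raised and NEK7 (-1.05) lowered, and of the JAMM deubiquitinases and endosomal sorting genes 2 were raised and 3 lowered, with BRCC3 at -0.92. Of the general transcription factors 3 were raised and 4 lowered, with GTF2A1 at -0.70 and GTF2F1 at 0.48, and of the histone chaperones and partners 3 were lowered, among them MCM2 (-0.30) and RBBP4 (-0.35). For the pentraxins limma called 0 of 2, at 0.18 (PTX3) and 0.02 (NPTXR). Shares of this size stand beside 55.9% of all genes.

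The genes whose levels followed each of the 10 most closely over the 18 libraries were found by Pearson's r of log2 values, which is dominated by the difference between the 2 states and shares each library's depth and base composition. PNPT1 was closest to CTNNAL1 (r = 0.994) and to CCNA2, the cyclin of S and G2 phase (r = 0.992). CALM2 was closest to the cell cycle kinase CDK1 (r = 0.989) and to TIPRL (r = 0.988), and HAT1 to GMPS (r = 0.989), of purine synthesis, and to CALM2 (r = 0.986). SUB1 was closest to the translation initiation factor subunits EIF3E (r = 0.984) and EIF3M (r = 0.971). FOXF1 was closest to the AP-1 subunit gene JUND (r = 0.979) and to ZBTB7B (r = 0.978), and PRRX2 to CRIP2 (r = 0.992) and METRNL (r = 0.989). NPTX1 was closest to PACS1 (r = 0.928) and the cytokine gene LIF (r = 0.901), and CETN3 to CD59 (r = 0.953) and REXO2 (r = 0.948). STAMBPL1 had no gene above 0.869 (NDUFA10), followed by MTX1 (r = 0.853), and PYCARD none above 0.849 (LAMTOR1), followed by CISD3 (r = 0.842).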

How the data were processed

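RNA from 18 IMR90 samples was sequenced by the authors as single-end reads of 100 nt from TruSeq V2 libraries, which do not keep the strand. The submitters' processing notes name Trimmomatic 0.32, STAR 2.5.2b, featureCounts of Subread 1.5.0-p3, DESeq2 and GRCh38.p7. The deposited signal is the read count of a gene divided by the size factor of its library, made by the authors with DESeq2. Whole reads were recovered from it for 100% of values (tolerance 0.01 reads). The table also holds p-values, q-values and ranks of the authors' own test, which were not used.

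A pseudocount of 1 was added before taking log2, so fold changes of low genes are understated. The 13686 genes with a mean value of at least 10 over the 18 libraries, all 10 genes described here among them, entered linear models of limma 3.58.1 (R 4.3.3) with a coefficient for each group and a mean-variance trend. Tests were two-sided, with the Benjamini-Hochberg adjustment over all genes tested and a threshold of 0.05. The 9 libraries without tBHP were fitted together, and the 6 PBS libraries for the response to tBHP. That response had been planned as a test of the 10 genes and is given as values, because the PBS libraries after tBHP entered their choice. The 10 genes and the gene lists were chosen with earlier results of these data known. From each list up to 4 genes with the smallest p were named, and for each of the 10 genes the 2 genes with the highest correlation.

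Alternatives were pseudocounts of 0.1 and 5, no filter, a minimum mean of 50, quantile and TMM scaling, edgeR 4.0.16 and DESeq2 1.42.0 on recovered reads, a fit of all 18 libraries, a replicate block, removal of each library's trend with the GC content and length of transcripts in GENCODE 29 (splines of 5 degrees of freedom, for 12528 genes or 91.5%), and each library left out in turn. The scripts were tested on simulated data. Shared replicate numbers were checked by the correlation of deviations from group means. It ran from -0.02 to 0.11 for same-numbered libraries without tBHP and from 0.03 to 0.09 between PBS libraries with and without tBHP. Over all pairs of groups it ran from -0.12 to 0.33 for same-numbered libraries. The main fits did not take the numbers as pairs. Promoter bases came from RefSeq (GRCh38.p14).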

Additional observations from a re-analysis of the deposited data

How the results depend on the processing

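PYCARD, at 42 to 109 reads per library, had the widest intervals, and 3 libraries per group limit every value. For cNSF-HA against fNSF-HA without tBHP, limma called 941 genes, 236 higher and 705 lower. TMM scaling gave 325 higher and 323 lower. The count was 71 with no filter, 327 with quantile scaling (221 higher and 106 lower), 396 with DESeq2, 0 in a fit of all 18 libraries (206 with an unadjusted p under 0.05), 105 with the GC and length trend removed, and 120 to 855 with 1 library left out. For cNSF-HA against PBS it was 0, then 29 with no filter, 15 with DESeq2 and 0 to 219 with 1 library left out. For fNSF-HA against PBS it was 19, then 5 at a minimum mean of 50, 12 with quantile scaling, 1 with DESeq2, 0 in the fit of all 18 libraries, 6 with the trend removed and 8 to 18 with 1 library left out. The count of genes whose HA groups did not overlap after tBHP ran from 4 to 10 of 10 with 1 library left out, which cannot lower it. The cause of these shifts was not tested.

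Replicate numbers were not taken as pairs in the main fits, although 7 of 9 libraries without tBHP correlated best with their own number. The labels do not say whether the numbers mark pairs. With a replicate block the counts were 1439, 280 and 38 for the 3 comparisons above in that order, and 261 and 34 for the former 2 with the trend removed as well. With the block HAT1 passed for cNSF-HA against fNSF-HA (limma adjusted p = 0.044) and CALM2 for cNSF-HA against PBS (limma adjusted p = 0.0026). With the block and the trend removed together neither passed, with HAT1 at -0.022 (limma adjusted p = 0.843) and CALM2 at -0.037 (limma adjusted p = 0.649), while FOXF1 passed for cNSF-HA against fNSF-HA (limma adjusted p = 0.0333) and CALM2 did not (limma adjusted p = 0.129).

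With the trend removed, with or without the replicate block, the sign turned for cNSF-HA against fNSF-HA without tBHP in SUB1 (0.026), PRRX2 (-0.071), NPTX1 (-0.0049) and CETN3 (0.070). After tBHP it turned in PNPT1 (0.10), HAT1 (0.017), SUB1 (0.092), CETN3 (0.013) and CALM2 (0.011). For cNSF-HA against PBS it turned in PNPT1 (0.023), SUB1 (0.042) and PRRX2 (-0.0014), for fNSF-HA against PBS in HAT1 (-0.0076) and PRRX2 (0.070), and for the response of PBS cells in PYCARD (-0.21). HAT1 against PBS with fNSF-HA also turned with quantile scaling (-0.017), TMM (-0.0100), edgeR (-0.0095) and DESeq2 (-0.0074). With 1 library left out, HAT1 ran from -0.022 to 0.028 in that comparison, PRRX2 from -0.067 to 0.0049 and STAMBPL1 from -0.0030 to 0.080. PYCARD ran from -0.10 to 0.20 for cNSF-HA against PBS and from -0.030 to 0.27 for the response of PBS cells. With no filter FOXF1 and CALM2 had limma adjusted p of 0.319 and 0.065 for cNSF-HA against fNSF-HA without tBHP.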
